A study of Homo sapiens with 4 samples.

Results

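Plasma carrier proteins are the binding and transport proteins that the liver secretes into blood. The genes described are 10 chosen by symbol, namely ALB, TF, TTR, GC, RBP4, HP, HPX, ORM1, ORM2 and A2M, and all 10 have a row among the 30863 genes of the deposited table. They were measured by RNA sequencing after poly(A) selection in HepG2, an established human liver cancer line that the labels call hepatoblastoma, of wild-type genotype. Cells in serum-containing medium received DMSO, the solvent, or AMF for 48 h, with 2 libraries per group. AMF stands for amentoflavone, a plant biflavonoid named in the study's title. The dose in the treatment text is 90 µM AMF, but Tub B at 80 µM stands in the design text, so agent and dose are uncertain and AMF means here the libraries that carry that name. HepG2 derives from a single tumour, and the labels do not state whether the replicates are separate cultures, so the p-values reflect variation among these 4 libraries that could be technical.

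Hepatocytes make most of the protein in plasma. Albumin binds fatty acids, bilirubin and drugs and keeps water in the vessels, transferrin carries iron, and transthyretin carries thyroid hormone and holds the retinol carrier RBP4 in the circulation. Haptoglobin captures free haemoglobin and hemopexin captures free heme, the orosomucoids bind basic drugs, and alpha-2-macroglobulin traps proteases and cytokines. In inflammation the liver makes more haptoglobin, hemopexin and orosomucoid (positive acute-phase proteins) and less albumin, transferrin and transthyretin (negative acute-phase proteins), with interleukin-6 acting through STAT3 and C/EBP factors.

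Depth was close between libraries, at 24226586 to 26966210 reads recovered in genes. Values are normalized counts, that is reads divided by the size factor of the library, and 1 read is worth 0.929 to 1.03 of them. Changes are log2 changes of AMF against DMSO on log2(normalized count + 1), which understates the change of genes with few reads, with p-values from limma adjusted by Benjamini-Hochberg over all 23828 genes tested. Mitochondrially encoded genes took 7.69% to 7.73% of the reads in DMSO and 9.53% to 9.61% in AMF, and the part of this in the results was not tested. Defining hepatocyte genes were abundant, with a summed normalized count over 10 of them of 490039 and 482531 in DMSO and 369717 and 357265 in AMF. Of these 10, 2 rose, 5 fell and 3 did not pass. Of markers of other cells, the collagen gene COL1A2 and the stromal genes COL3A1 and DCN were under the mean of 1 needed for testing, as were the endothelial genes KDR and TEK, and the leukocyte genes PTPRC and MS4A1 have no row and were not analysed here. Over the whole lists, 1 of 4 tested stellate cell or fibroblast markers rose and 2 fell, with summed normalized counts of 970.2 to 970.6 in DMSO and 1209 to 1226 in AMF. Most of that sum was ACTA2, smooth muscle actin, which rose from 767 ± 10.9 to 1186 ± 19.3 (mean ± SD, n = 2 per group). The collagen gene COL1A1 fell from 116 and 86.2 to 5.57 and 8.24 and the growth factor receptor PDGFRB from 94.0 and 108 to 26.0 and 13.4, and LUM did not pass. Of 3 endothelial markers 2 rose and 0 fell (159 to 188 in DMSO, 292 to 320.4 in AMF). The rises were PECAM1, from 165 ± 28.2 to 283 ± 8.25, and VWF, from 4.51 ± 4.93 to 17.7 ± 9.06. Of 4 cholangiocyte markers, keratins among them, 1 rose and 2 fell (19175 to 19670 and 23643 to 24789). KRT19 rose, from 7666 ± 303 to 15084.5 ± 1039, and SOX9 and EPCAM fell. Of 5 immune markers 1 rose and 1 fell (24611 to 25213 and 17469 to 18429), a sum made up almost wholly of the lysozyme gene LYZ. The part of these markers in the results was not tested.

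Carrier transcripts were lower in AMF or differed by less than could be called, and 0 of the tested members rose. Of the 10 members, 9 had a mean of at least 1 normalized count and were tested, and GC was not. A2M, TF, HP and HPX fell to between 33.4% and 51.1% of their DMSO means, and TTR and ORM1 fell to 76.5% and 79.1%. ALB, RBP4 and ORM2 did not pass. Thus 6 of the 9 tested members fell, where 16.2% of all genes tested were called lower in AMF and 31.8% were called in either direction. The 9 tested members all averaged 10 normalized counts or more, and among the 15845 genes that did so the shares were higher, 25.8% lower in AMF and 48.9% in either direction, with the same count of 6 members. In 7 members both AMF libraries lay below both DMSO libraries, as they did in 29.7% of all genes tested. The members were chosen with earlier results of these data known, so these shares do not test for an excess of falls. The median log2 change of the 9 tested members was -0.38, beside 0.04 over all genes tested. In bulk RNA, fewer cells that express a gene and less RNA per cell cannot be told apart.

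**Figure D1:**
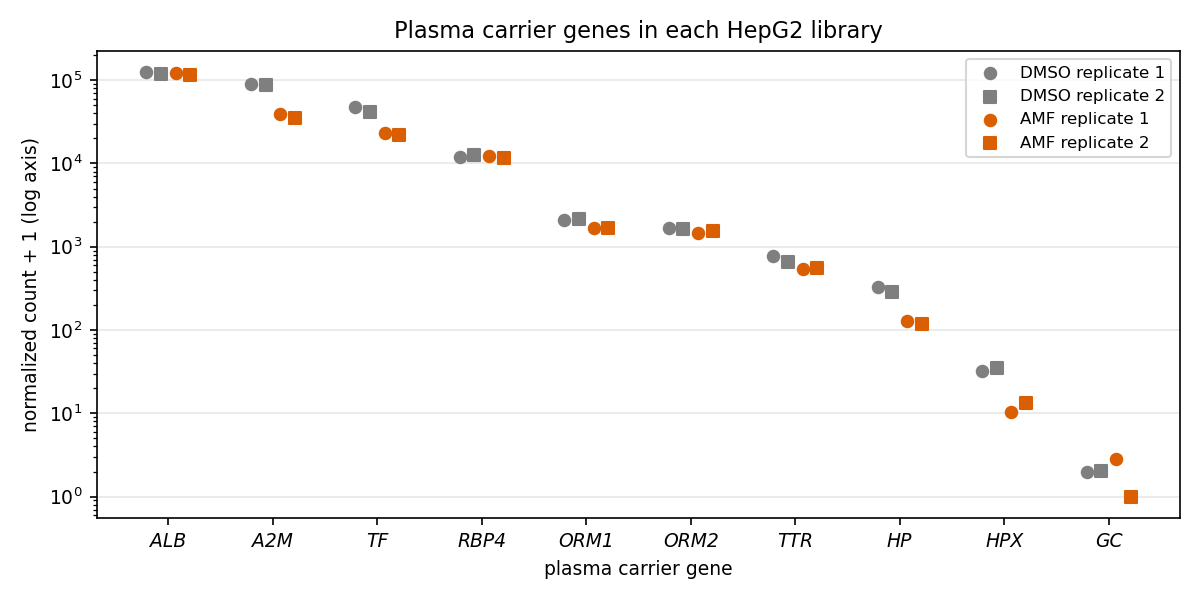
Normalized count plus 1 (log axis) of the 10 carrier genes in each library, with DMSO in grey and AMF in orange, circles for replicate 1 and squares for replicate 2. The AMF points of A2M, TF, HP and HPX lie clearly below the DMSO points, those of ALB and RBP4 overlap them, and GC stays at 0 to 2 reads in every library.

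Promoter bases are shown for the 5 members whose symbol has an entry among the promoters used here, with levels in AMF from 33.4% (HPX) to 98.5% (ALB) of DMSO. They come from RefSeq on GRCh38.p14 (the reads were aligned to hg19, so no coordinate of the data is used), and the 5 of 10 members that matched, namely ALB, TF, RBP4, HPX and ORM1, have 8 start sites. The promoters of A2M, HP, TTR, GC and ORM2 were not analysed here. Each run gives the 250 bases before a start, 5′ to 3′ on the gene's strand, and capitals mark matches to the 8 motifs searched. These are chr4:73404037-73404286 (plus strand) for ALB, chr3:133746143-133746392 (plus) for the second of the TF starts, chr11:6440988-6441237 (minus) for HPX, chr9:114322848-114323097 (plus) for ORM1 and chr10:93601236-93601485 (minus) for the first of the RBP4 starts.
ALB: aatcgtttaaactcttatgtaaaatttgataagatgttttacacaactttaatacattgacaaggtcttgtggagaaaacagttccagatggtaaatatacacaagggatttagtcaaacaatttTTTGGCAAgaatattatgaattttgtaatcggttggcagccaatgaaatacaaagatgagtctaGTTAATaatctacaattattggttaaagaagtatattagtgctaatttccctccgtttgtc
TF: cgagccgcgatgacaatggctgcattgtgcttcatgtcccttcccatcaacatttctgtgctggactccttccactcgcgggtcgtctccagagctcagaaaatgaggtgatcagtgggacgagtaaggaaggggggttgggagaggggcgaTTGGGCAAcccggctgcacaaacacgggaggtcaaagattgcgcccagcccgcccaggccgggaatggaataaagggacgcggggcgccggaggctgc
HPX: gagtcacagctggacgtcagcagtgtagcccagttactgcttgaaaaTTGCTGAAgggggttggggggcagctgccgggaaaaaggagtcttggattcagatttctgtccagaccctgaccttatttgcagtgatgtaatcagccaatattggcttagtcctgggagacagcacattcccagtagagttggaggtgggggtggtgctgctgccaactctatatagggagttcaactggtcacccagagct
ORM1: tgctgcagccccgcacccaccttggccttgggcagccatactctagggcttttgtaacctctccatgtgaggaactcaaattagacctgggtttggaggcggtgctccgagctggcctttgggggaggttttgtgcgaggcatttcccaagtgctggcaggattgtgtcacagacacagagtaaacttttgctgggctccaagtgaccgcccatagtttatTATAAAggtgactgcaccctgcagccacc
RBP4: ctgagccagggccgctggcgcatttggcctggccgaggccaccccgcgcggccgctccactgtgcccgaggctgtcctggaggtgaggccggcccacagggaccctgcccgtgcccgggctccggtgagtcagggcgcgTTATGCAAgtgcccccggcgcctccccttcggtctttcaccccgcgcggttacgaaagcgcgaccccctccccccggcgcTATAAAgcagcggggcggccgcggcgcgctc

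The motifs were searched on both strands as the letters TTGCNNAA for C/EBP, GTTAAT for an HNF1 core, TTCNNNGAA for STAT3, TGTTTAC for FOXA, CAAAGTCCA for HNF4, GCGTG for the core bound by the aryl hydrocarbon receptor, TGACNNNGC for the core bound by NRF2 and TATAAA for the TATA box. The C/EBP letters occurred before 4 of the 8 member starts and before 9.05% of all 35116 starts. These 4 belong to ALB, RBP4, HPX and TF, of which HPX and TF fell in AMF and ALB and RBP4 did not pass. The HNF1 core occurred before 1 of the 8 starts searched, that of ALB, 61 to 56 bases before the start, and before 6.23% of all starts. TATA letters occurred before 3 of the 8 member starts and before 10.7% of all starts. They lay 29 to 24 bases before the ORM1 start, 31 to 26 before the first RBP4 start and, in 2 overlapping matches on opposite strands, between 227 and 220 before the second RBP4 start. The STAT3 letters and the aryl hydrocarbon receptor core each occurred before 1 member start, both times at RBP4, and before 6.57% and 32.2% of all starts. The FOXA, HNF4 and NRF2 letters had no match in these windows, and occurred before 2.98%, 0.325% and 10.9% of all starts. A match is a description of letters, not a bound site.

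**Figure D2:**
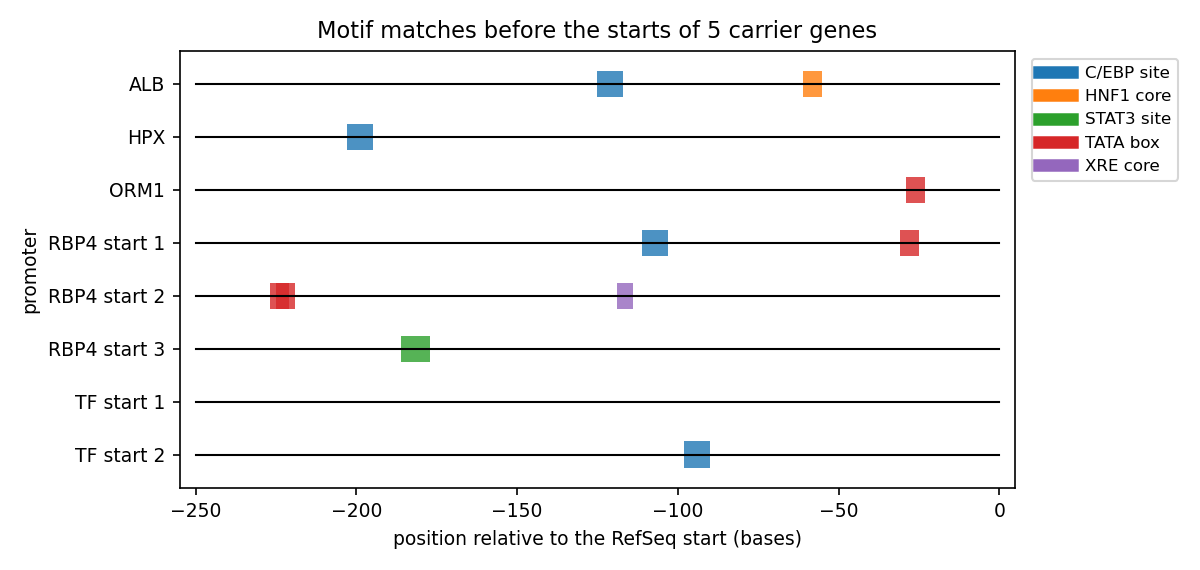
Positions of motif matches in the 250 bases before each of the 8 RefSeq starts of ALB, HPX, ORM1, RBP4 and TF, with the start at 0 and a colour per motif. C/EBP matches stand at ALB, HPX, the first RBP4 start and the second TF start, and the first TF start has no match.

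A2M encodes alpha-2-macroglobulin, the large protease trap. Its normalized counts were 89218 and 87451 in DMSO replicates 1 and 2 and 39680 and 34908 in AMF replicates 1 and 2. Both AMF libraries were far below both DMSO libraries, and the DMSO libraries nearly coincided. The log2 change was -1.25, SE 0.0478, 95% interval -1.35 to -1.14, with a limma adjusted p of 1.67e-10. A2M took 0.350% and 0.346% of all reads in DMSO and 0.158% and 0.140% in AMF. Exons of the antisense gene A2M-AS1 overlap A2M by 561 bases in GENCODE 29, and the kit keeps no strand. A2M-AS1 was listed at 29.9 to 58.5 normalized counts, but how many reads the overlap touched was not measured. The A2M paralog PZP, pregnancy zone protein, had 4 reads in each DMSO library and 1 in each AMF library, and did not pass. The PZP ratio of summed reads was 0.241 (exact 95% interval 0.0249 to 1.21, counting error only).

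TF encodes transferrin, the iron carrier. It had 47229 and 41209 normalized counts in DMSO and 22959 and 22234 in AMF. The gap between the DMSO libraries, 0.20 on the log2 scale, was a small part of the log2 change of -0.97 (SE 0.0509, limma adjusted p = 3.72e-09). The interval of the change, -1.07 to -0.86, includes a fall to exactly 0.5 of the DMSO level. TF exons overlap those of SRPRB by 112 bases and of the pseudogene TFP1 by 191 bases. SRPRB went from 1098 and 1039 to 1586 and 1680 normalized counts, the opposite direction to TF.

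HP encodes haptoglobin, which binds free haemoglobin. Its level in HepG2 was low, with 329 and 288 normalized counts in DMSO and 127 and 118 in AMF. All 4 libraries kept the groups apart, with a log2 change of -1.32, SE 0.130 and a limma adjusted p of 2.21e-06. The neighbouring paralog HPR, haptoglobin-related protein, fell as well, from 99.9 ± 9.76 to 57.7 ± 11.7 (mean ± SD, n = 2 per group, limma adjusted p = 0.0101). Of the 50-base windows of the longest HP transcript, 28.6% occur in HPR transcripts too, so the split of reads between these genes is uncertain.

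HPX encodes hemopexin, the heme carrier. It was detected by few reads, 31 and 33 in DMSO and 10 and 12 in AMF. Every DMSO library had more than both AMF libraries. The ratio of summed reads, scaled by size factors, was 0.331 with an exact binomial 95% interval of 0.194 to 0.545, which covers counting error only. The log2 change was -1.51, SE 0.383, with a limma adjusted p of 0.00698, and its interval of -2.33 to -0.69 was the widest among the members. On the deposited log2 values, which compress low counts, the change was -0.42.

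TTR encodes transthyretin. It had 783 and 653 normalized counts in DMSO and 541 and 556 in AMF. The AMF libraries were lower than both DMSO libraries, but the DMSO libraries differed by 0.26 on the log2 scale, and the change was -0.38 (SE 0.0910, limma adjusted p = 0.00468). Without DMSO replicate 1 the change was -0.25 and did not pass (limma adjusted p = 0.105).

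ORM1 and ORM2 encode the orosomucoids, also called alpha-1-acid glycoproteins. ORM1 had 2088 and 2165 normalized counts in DMSO and 1676 and 1686 in AMF. Its log2 change was -0.34, SE 0.0547, with a limma adjusted p of 2.18e-04. ORM2 had 1679 and 1628 in DMSO and 1473 and 1529 in AMF. The ORM2 groups did not overlap either, yet the change of -0.14 (interval -0.26 to -0.02) did not pass, with a limma adjusted p of 0.084. With voom on the recovered reads ORM2 passed (-0.16, adjusted p = 0.0445). The 2 genes share 47.4% of the 50-base windows of the longest ORM1 transcript, so how reads were split between them is uncertain. Summed as 1 feature, they fell by 0.25 on the log2 scale (limma adjusted p = 7.93e-04). ORM2 made up 44.6% and 42.9% of the pair's normalized counts in DMSO and 46.8% and 47.5% in AMF. The groups did not overlap in this share, but an exact permutation test of 2 libraries against 2 cannot give a 2-sided p below 0.333, and no other test of the share was run.

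ALB encodes albumin. It had 125341 and 117297 normalized counts in DMSO and 122923 and 116050 in AMF. The groups overlapped, and replicate 1 exceeded replicate 2 in both. The log2 change was -0.02 (limma adjusted p = 0.726), and its interval of -0.11 to 0.06 corresponds to a ratio of 0.930 to 1.04. RBP4, the retinol carrier, had 11997 and 12694 in DMSO and 12150 and 11605 in AMF, again with overlapping groups. Its log2 change was -0.06, interval -0.15 to 0.04 (limma adjusted p = 0.363), a ratio of 0.904 to 1.02. With voom, the ALB change was 0.018 without DMSO replicate 1 and -0.07 without DMSO replicate 2. It was -0.07 without AMF replicate 1 and 0.0026 without AMF replicate 2. The direction of ALB thus rests on the libraries used, in either group. RBP4 passed with voom without DMSO replicate 1 only, at -0.11.

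GC encodes the vitamin D binding protein, a relative of albumin. A single read was found in each DMSO library, 2 in AMF replicate 1 and 0 in AMF replicate 2. All 4 values are under the floor of 3 reads (2.79 to 3.09 normalized counts per library), so no fold is given, and a difference was not detectable at this depth.

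**Figure D3:**
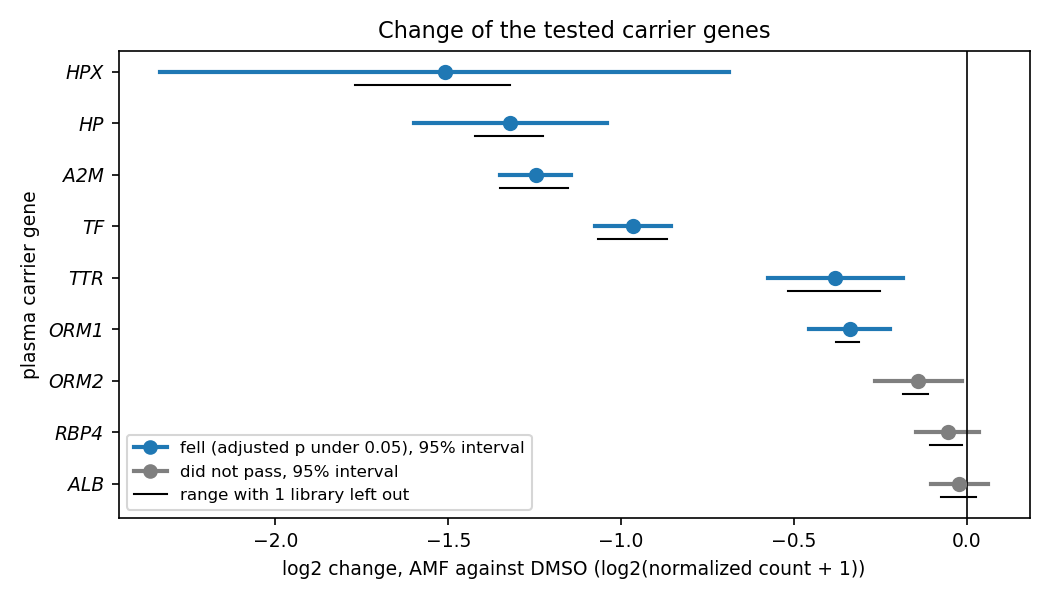
Log2 change of AMF against DMSO for the 9 tested carrier genes, with the 95% interval as a thick line (blue where the adjusted p was under 0.05, grey otherwise) and the range of the change with 1 library left out, by limma-trend or voom, as a thin black line. HPX, HP, A2M and TF lie furthest from 0 at -1.51 to -0.97, and only the ALB and RBP4 intervals cross 0.

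Without DMSO replicate 1, 4 members passed with limma-trend (A2M, TF, HP and ORM1), and 5 without DMSO replicate 2, when TTR passed too. Without AMF replicate 1 or without AMF replicate 2, 0 of all 23828 genes passed, with 6575 and 6387 genes at an unadjusted p under 0.05. With voom on the recovered reads A2M, TF and HP passed with any 1 library left out, whereas ORM1, TTR and HPX did not pass without AMF replicate 1 (adjusted p = 0.0596, 0.210 and 0.114) or without AMF replicate 2 (0.0545, 0.176 and 0.0866).

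Levels of different genes were compared per kilobase of coding sequence, on the normalized counts divided by the GENCODE 29 coding length of each gene. Reads also come from untranslated parts, so these levels are approximate. In DMSO the order began with ALB at 66404 ± 3113 per coding kb (SD, n = 2), rank 17 of 15831 genes with a coding length. TF (21117 ± 2033), RBP4 (20473 ± 818) and A2M (19976 ± 282) followed and did not differ beyond their spread. ORM1 (3527 ± 90.3), ORM2 (2743 ± 59.9) and TTR (1628 ± 208) formed the middle, each apart from its neighbour. HP (253 ± 23.4), HPX (23.4 ± 1.48) and GC (0.712) closed the order.

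In AMF, ALB stayed first at 65400 ± 2660 per coding kb. RBP4 (19697 ± 640) then stood apart from TF (10791 ± 245) and A2M (8434 ± 763). The rank of A2M among the 15831 genes went from 132 in DMSO to 367 in AMF and that of TF from 124 to 270, while RBP4 held rank 128 and then 136. The per-kb level of A2M was 0.294 and 0.308 times that of ALB in the DMSO libraries and 0.133 and 0.124 times in the AMF libraries. ALB made up 49.2% and 48.4% of the summed carrier level per coding kb in DMSO and 59.1% and 58.8% in AMF. All 10 carriers together took 1.09% and 1.04% of all reads in DMSO and 0.805% and 0.756% in AMF.

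**Figure D4:**
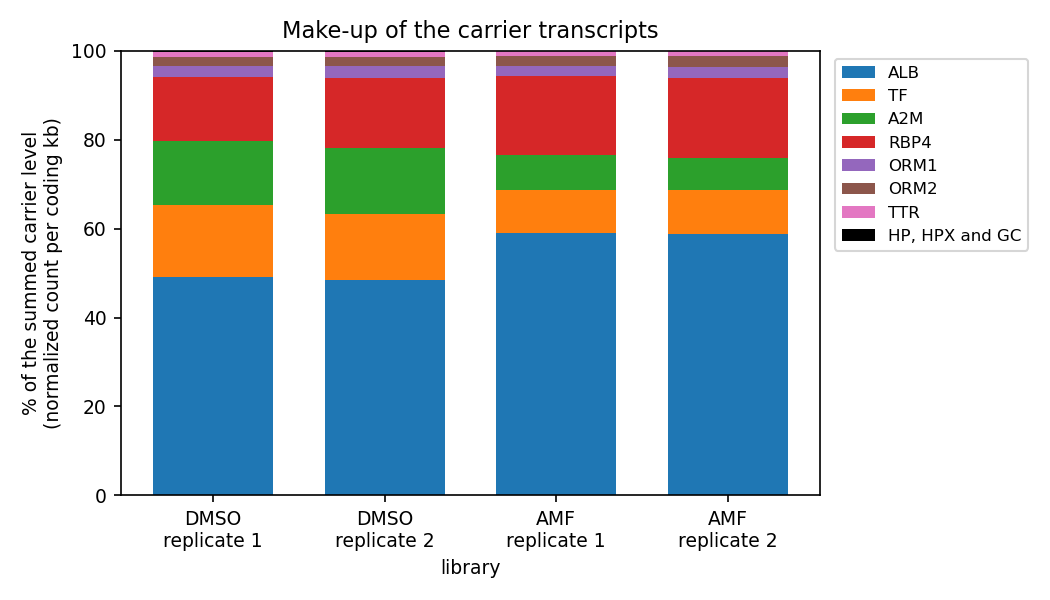
Share of each carrier gene in the summed carrier level (normalized count per coding kilobase, %) in the 4 libraries, as stacked bars. ALB takes 48.4% to 49.2% in DMSO and 58.8% to 59.1% in AMF, while the A2M share goes from 14.5% and 14.9% to 7.88% and 7.31% and the TF share from 16.2% and 14.8% to 9.62% and 9.83%.

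Other carriers did not move as a block. Of 15 tested genes of 16 listed, 5 rose, 4 fell and 6 did not pass, with a median log2 change of 0.12. Ceruloplasmin (CP), the copper carrier, had 1476 and 1170 normalized counts in DMSO and 491 and 499.6 in AMF, a log2 change of -1.41. The thyroxine-binding globulin SERPINA7 went from 3320 and 3064 to 1254 and 1165, a change of -1.40. The sex hormone binding globulin SHBG rose from 56.0 and 80.1 to 154 and 171 (1.27), and transcobalamin TCN2, a vitamin B12 carrier, from 11.0 and 13.3 to 29.7 and 39.1 (1.42). Within the albumin family, AFP (alpha-fetoprotein) fell by 0.61 on the log2 scale, AFM (afamin) had 5.57 ± 0.611 in DMSO and 4.95 ± 1.74 in AMF and did not pass, ALB did not pass and GC was not tested. AFP lies outside the rule for named genes and was added after its values were seen, as the close relative of ALB.

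Most of the tested acute-phase proteins outside the members fell in AMF. Of 12 tested genes of 17 listed, 0 rose, 8 fell and 4 did not pass, with a median log2 change of -0.51. This list was not split into positive and negative acute-phase proteins. The falls included ITIH3, a chain of the inter-alpha-trypsin inhibitor family, from 1907 and 1974 normalized counts to 695 and 602 (-1.58, limma adjusted p = 1.22e-09). The protease inhibitor SERPINA3 went from 157 and 197 to 69.6 and 56.7 (-1.47, limma adjusted p = 2.31e-05). The acute-phase genes CRP, SAA1 and APCS have no row in the table and were not analysed here. Members fell from both sides of the acute-phase response, HP, HPX and ORM1 among its positive proteins and TF and TTR among its negative ones. ORM2 among the positive and ALB among the negative ones did not pass. The part of the acute-phase response in these changes was not tested.

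Of 19 genes of interleukin-6 and interleukin-1 signalling, with inhibitors such as NFKBIA and SOCS3 counted alike, 3 rose, 9 fell and 7 did not pass. The median log2 change was -0.15. The interleukin-6 receptor IL6R rose from 1168 ± 68.9 to 1858 ± 121 (0.67, n = 2 per group), and its signalling partner IL6ST rose by 0.19. CEBPB, a C/EBP factor of acute-phase promoters, fell from 3752 ± 187 to 2164 ± 0.0891 (-0.79), and the NF-κB subunit NFKB1 fell by 0.77 on the log2 scale. Of 17 liver transcription factors, 1 rose, 9 fell and 7 did not pass, with a median of -0.18. HNF4A, a nuclear receptor central to hepatocyte identity, was the member that rose, from 7044 and 7053 normalized counts to 13071 and 12569 (0.86). The bile acid receptor NR1H4 fell by 1.03 and the forkhead factor FOXA3 by 0.96 on the log2 scale.

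Of 11 listed genes that take up or recycle the carriers, 10 were tested. Among these 0 rose, 3 fell and 7 did not pass, with a median log2 change of -0.16. Lower calls made up 16.2% of all genes tested and 25.8% of those that averaged 10 normalized counts or more. The 3 falls are thus near the second share. LRP1, the endocytic receptor for alpha-2-macroglobulin and for heme-bound hemopexin, went from 28509 and 28819.5 normalized counts to 18081 and 17019 (-0.71, limma adjusted p = 5.27e-09). TFRC, the transferrin receptor, went from 12553 and 11722.5 to 8476 and 8990 (-0.47, limma adjusted p = 1.63e-06). LRP1 and TFRC were thus lower in the same libraries as A2M, HPX and TF, while TFR2, FCGRT and ASGR1 did not pass. ASGR2, which lies outside the rule for named genes, fell as well, by 0.19 on the log2 scale (limma adjusted p = 0.00221). A link between receptor and carrier levels was not tested. Of 16 genes of iron and heme handling, 7 rose, 3 fell and 6 did not pass, with a median of 0.15. The heme oxygenase HMOX1 rose from 1243 ± 57.5 to 3075 ± 169 (1.31) and the hepcidin-inducing ligand BMP6 by 0.82, whereas the iron importer SLC11A2 fell by 0.73 and HFE, a regulator of hepcidin, by 0.51 on the log2 scale.

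Of 14 tested genes of 16 listed for the retinoids that RBP4 carries, 4 rose, 1 fell and 9 did not pass, with a median log2 change of -0.02. The retinal dehydrogenase ALDH1A1 rose by 0.40 and the retinoic acid hydroxylase CYP26B1 by 0.67, while the retinal reductase DHRS3 fell by 0.60 on the log2 scale. The CYP26B1 change was 0.34 without DMSO replicate 1 and 1.002 without DMSO replicate 2, and it did not pass in either case or with a pseudocount of 0.1 (limma adjusted p = 0.0914). Of 8 tested genes of 10 listed for vitamin D and thyroid hormone, the cargoes of GC and TTR, 2 rose, 3 fell and 3 did not pass, with a median of -0.08. The vitamin D hydroxylase CYP24A1 rose from 1298 ± 172 to 3178 ± 27.9 (1.30) and the deiodinase DIO1 from 34.5 ± 2.08 to 76.8 ± 18.1 (1.12). The thyroid hormone receptors THRA and THRB fell by 0.46 and 0.45 on the log2 scale. For comparison with each of these lists, 15.6% of all genes tested were called higher and 16.2% lower in AMF, and 23.2% and 25.8% of those that averaged 10 normalized counts or more.

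The calls of the related genes depended on single libraries, and with limma-trend on both AMF libraries being kept, as they did for all genes. Among the genes named from the lists, BMP6 did not pass without DMSO replicate 2, and CYP26B1, DIO1, HFE, IL6ST and TCN2 did not pass without either DMSO replicate, each with the same direction of change. Without DMSO replicate 1, limma-trend called 5 of the other plasma carriers (9 with all libraries), 5 of the acute-phase proteins (8), 6 of the interleukin signalling genes (12) and 5 of the liver transcription factors (10). It also called 2 of the receptors (3), 6 of the iron and heme genes (10), 3 of the retinoid genes (5) and 3 of the vitamin D and thyroid hormone genes (5). With voom and without AMF replicate 1, 7 acute-phase proteins were called (8 with all libraries and voom), all lower, against 3 of the other plasma carriers (9), 6 of the interleukin signalling genes (12) and 6 of the liver transcription factors (13). The same setting called 2 of the receptors (4), 5 of the iron and heme genes (10), 1 of the retinoid genes (6) and 1 of the vitamin D and thyroid hormone genes (5).

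**Figure D5:**
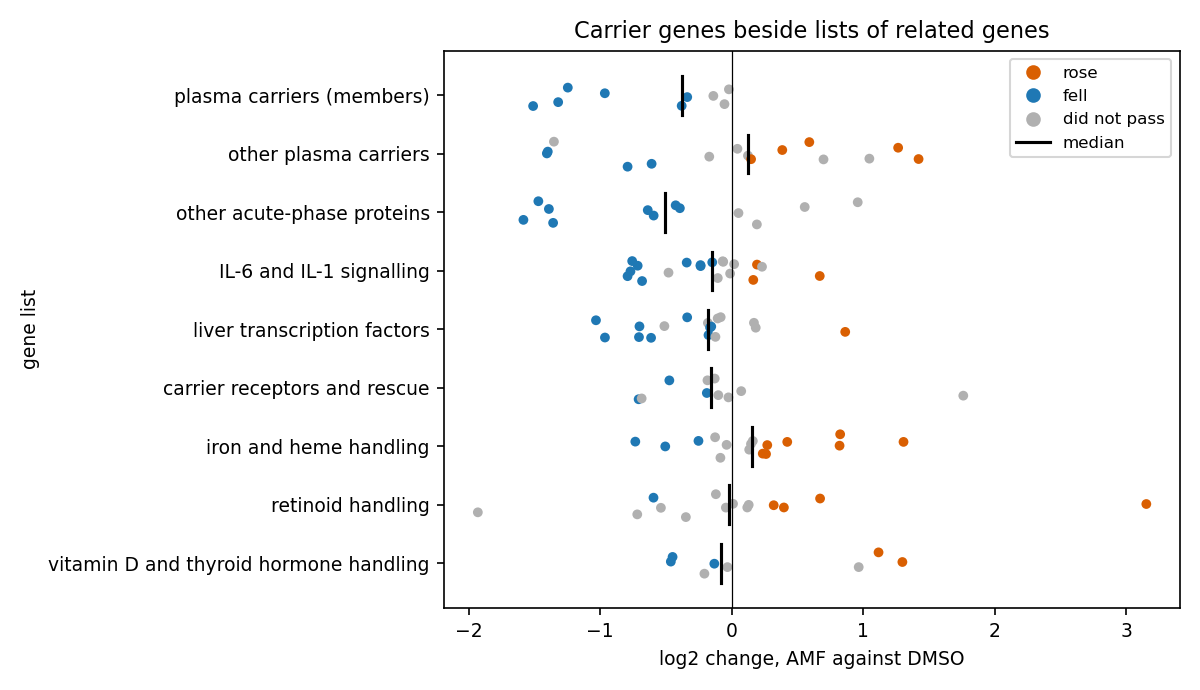
Log2 change of AMF against DMSO for each tested gene of the carriers and of 8 lists of related genes, with rises in orange, falls in blue, genes that did not pass in grey and a black bar at each list's median. The carriers (median -0.38) and the other acute-phase proteins (median -0.51) hold no called rise, while the other plasma carriers have called genes on both sides of 0. The acute-phase genes SAA4, LBP, HAMP and FGB lie above 0 but did not pass.

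The genes nearest in pattern were sought for ALB, the most abundant member, and HPX, the member with the largest change, by Euclidean distance between centred log2 values over the 4 libraries among the 11137 genes whose mean reached 100 normalized counts. Nearest to ALB were PLEKHJ1, AHSA2 and ARHGEF7, at distances of 0.0140, 0.0153 and 0.0168, all with a log2 change of -0.03. Nearest to HPX were FILIP1L, RP11-432J24.5 and LGI1, at distances of 0.151, 0.181 and 0.208, with log2 changes of -1.40, -1.65 and -1.44. HPX itself had only 31 and 33 reads in DMSO and 10 and 12 in AMF. Counting error in HPX enters these distances, so which genes rank nearest to it is uncertain. With 4 libraries, such nearness says only that the levels move alike between these libraries.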

How the data were processed

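The deposited table holds log2 values for 30863 genes in 4 libraries, matched to samples by column name, with 0 columns of other samples. Per the submitters' processing notes, the authors used STAR 2.7.0, featureCounts and genome build hg19, while for annotation, filtering and normalization the sources used here give nothing. The log2 values deposited share a lowest value of 6.01 and have the form of a variance-stabilizing transformation, which is read from the values. Inverted, they gave reads that were whole within 0.01 for 100% of values under 1000 reads. Simulated reads put through such a transformation were recovered at 100%, which checks the inversion and not the form of the deposited values.

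Limma-trend (limma 3.58.1, R 4.3.3) was run on log2(normalized count + 1) for 23828 genes with a mean of at least 1, with the group as sole term and an adjusted p under 0.05. On simulated counts of 15532 genes for AMF against DMSO, it recovered 73.1%, 88.1% and 92.4% of genes changed 1.5, 2 and 4 times, with 6 false calls. The simulation gave every gene the same spread between replicates (dispersion 0.0025) and changed only a small part of the genes. Its false calls therefore do not measure those of the fit to the real libraries. Alternatives were voom with TMM scaling, other pseudocounts, filters and scalings, each library left out, a replicate block and paralogs summed. Within a group, libraries differed beyond sampling noise (reduced chi-square 4.02 in DMSO and 2.27 in AMF). Exact intervals and floors cover counting error only, because PCR copies cannot be told from separate molecules here.

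The members and lists were chosen with earlier results of these data known. By rule each list names at most 2 rises and 2 falls, the largest among called genes whose mean reached 10. Statements on the named genes with libraries left out cover those chosen by this rule. List symbols HJV and SELENOP were matched to the older HFE2 and SEPP1. GENCODE release 29 gave coding lengths for 15831 genes. Figures used matplotlib 3.10.9.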

Additional observations from a re-analysis of the deposited data

How the results depend on the processing

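Of 23828 genes 7578 passed, and 6 members, all lower. Leaving out 1 library gave 0 to 3531 genes and 0 to 5 members with limma-trend, and 2007 to 6823 genes and 3 to 8 members with voom. Limma-trend gave 3531 and 3442 genes without DMSO replicates 1 and 2 and 0 without either AMF replicate, where the prior degrees of freedom fell from 11.9 to 0.995 and 1.003, and voom gave 2022 and 2007 genes and 3 members each without AMF replicates 1 and 2. With 1 library left in a group, that library is assumed to vary like the other group. With the other filters, pseudocount, scalings, deposited values and stricter threshold 6 members passed, and 7 with voom. The change of ALB was 0.018 with voom without DMSO replicate 1 (adjusted p = 0.0397), against -0.07 without DMSO replicate 2 (1.54e-24), and RBP4 passed with voom without DMSO replicate 1 (-0.11). With the replicate number as a block 8157 genes and the same count of 6 members passed, and the block changed no member's call. Deviations of same-numbered libraries correlated at 0.024 over 11137 genes, with 2 pairs, so the numbers were not taken as pairing. Depth limits HPX (64 and 22 reads per group) and GC (2 and 2).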
